A study of Homo sapiens with 6 samples.

Results

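The NKG2D ligands are the cell-surface proteins that the activating receptor NKG2D recognises. Their human genes are RAET1L, RAET1E, RAET1G, ULBP1, ULBP2, ULBP3, MICA and MICB. All 8 were found by symbol among the 17356 symbols listed for each library, and all 8 passed the filter on low values that left 16548 genes for testing. They were chosen by family membership with the siKIF15 minus NC differences of these libraries already known, so that contrast chose them, its values are a description and the family as such was not tested. The libraries are RNA-seq of C4-2B-ENZR, a human prostate cancer cell line that resists the antiandrogen enzalutamide. In the NC group (3 libraries) the cells had received a negative control siRNA, and in the siKIF15 group (3 libraries) an siRNA directed at KIF15, a kinesin of the mitotic spindle. The study's title links KIF15 to enzalutamide resistance. All 6 libraries came from this single line, and the labels do not say whether replicates were separate cultures, so errors and p-values cover only the variation among these particular libraries, and it may be technical.

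NKG2D sits on natural killer cells, CD8 T cells and gamma-delta T cells, where it signals through the adaptor HCST (DAP10). Its ligands are distant relatives of MHC class I heavy chains that bind neither peptide nor beta-2-microglobulin. Most healthy cells carry little of them, and infection, DNA damage, heat shock or transformation can bring them to the surface, which marks a cell for killing. Tumours can lose them again by proteolytic shedding, and soluble MIC protein has been described in prostate cancer. MICA and MICB lie among the class I genes and keep an immunoglobulin-like domain next to the membrane. The RAET1 and ULBP proteins lack that domain. ULBP1, ULBP2, ULBP3 and RAET1L (also called ULBP6) are held by a lipid anchor, whereas RAET1E (also called ULBP4) spans the membrane.

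The knockdown could not be seen in the targeted transcript. KIF15 stood at 366.4, 403.6 and 319.0 in the NC libraries, against 294.8, 333.1 and 363.0 in siKIF15, in units of the deposited signal, so the groups overlapped. Its log2 difference (siKIF15 minus NC throughout, on the log2(value + 1) scale) was -0.13 ± 0.14 (SE; limma, adjusted p = 0.565). The siKIF15 group is therefore called by its label, and all directions compare libraries labelled siKIF15 with libraries labelled NC. The summed signal ranged from 49460800 to 50063000 in NC and from 50360200 to 53157400 in siKIF15. These sums follow the authors' scaling and are not depths, so the depth is unknown. In base composition siKIF15 1 and siKIF15 2 stood apart from the other libraries, so this difference partly coincides with the groups. The correlation in siKIF15 3 had the same sign as in NC. Over 13527 genes, the deviation of a library from the gene's mean was set against transcript GC content by Spearman correlation. The correlations were 0.434 in siKIF15 1 and 0.385 in siKIF15 2, but -0.351 in siKIF15 3, against -0.326 to -0.151 in NC. For transcript length they were -0.123 in siKIF15 1, -0.311 in siKIF15 2 and 0.0945 in siKIF15 3, against 0.135 to 0.207 in NC. All 9 markers of prostate luminal epithelium were measured and tested, and their summed signal was 297716 to 307277 in NC and 321838 to 342336 in siKIF15. Among them, KLK2, KRT8 and KRT18 passed the threshold upwards and TMPRSS2 downwards (limma, adjusted p from 5.43e-05 for KLK2 to 0.0343 for TMPRSS2). Of these 4, KLK2 alone also passed when any single library was left out. KRT18 (0.25 to 0.30) and TMPRSS2 (-0.22 to -0.19) did not pass without NC 1, NC 2, NC 3 or siKIF15 1, KRT18 (0.20) also not without siKIF15 2, and KRT8 not without NC 2 (0.32) or siKIF15 1 (0.34). KRT18 did not pass with quantile normalized values (0.15) or after a correction for GC content and transcript length (0.10); under the same settings KRT8 was 0.23 and 0.17, and TMPRSS2 was -0.39 after the correction.

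The family falls into a pair of clusters on chromosome 6 (GENCODE 29 models, GRCh38). The authors' own build and annotation are not given in the sources used here. Within these models, the RAET1/ULBP cluster holds 6 members from 149883375 to 150069095. RAET1E (149883375 to 149898102), RAET1G (149916878 to 149923121), RAET1L (150018334 to 150025532) and ULBP3 (150063150 to 150069095) lie on the minus strand, and ULBP2 (149942000 to 149949235) and ULBP1 (149964007 to 149973710) on the plus strand. MICA (31399784 to 31415315) and MICB (31494881 to 31511124) lie on the plus strand within the MHC. RAET1E overlaps the coding model AL355312.5 on its own strand, and both it and RAET1G overlap the antisense transcript RAET1E-AS1. MICA overlaps HCP5. How reads in such overlaps were counted is not stated, and their part in the values was not tested.

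The closest coding sequences of the family belong to RAET1L and ULBP2, the members with the largest and the smallest of the rises described below. Their coding sequences matched at 714 of 738 aligned bases (96.75%). RAET1G matched RAET1L at 94.44% and ULBP2 at 94.31% of aligned bases, and MICA matched MICB at 91.91%. The first 60 coding bases, given 5′ to 3′ from the GENCODE 29 transcripts, are shown because they hold 12 differences between RAET1L and ULBP2, in capitals. They lie in the signal peptide.
RAET1L coding bases: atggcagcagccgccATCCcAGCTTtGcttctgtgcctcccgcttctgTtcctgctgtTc
ULBP2 coding bases: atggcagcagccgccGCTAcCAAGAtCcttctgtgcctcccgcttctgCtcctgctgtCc
This likeness bears on how far reads can tell the members apart. Of the 50-base windows of RAET1L transcripts, 31.53% occurred without a mismatch in another member, as did 32.23% of those of ULBP2 and 12.39% of those of RAET1G. For windows of 100 bases the shares were 11.79%, 11.92% and 1.59%. RAET1E shared no 50-base window with another member, although 38.51% of its windows occurred in another gene model, nearly all in AL355312.5. The remaining members shared 6.5% (ULBP3), 1.97% (ULBP1), 1.89% (MICA) and 1.74% (MICB) of their 50-base windows with the family. RAET1L, ULBP2 and RAET1G are thus uncertain to the extent that reads common to them were split, and that extent was not tested.

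The start regions of these near copies had less in common than their coding sequences. The 250 bases before the start of RAET1L, ULBP2 and ULBP1 (RefSeq, GRCh38.p14, 5′ to 3′ on the gene's strand) are printed because RAET1L and ULBP2 differed most in the size of their rise while closest in coding sequence, and ULBP1 was the member lower in siKIF15. Capitals mark matches on either strand to TGANTCA, the AP-1 consensus, and to TGACG, the core of cAMP response elements. The windows are chr6:150025533-150025782 on the minus strand for RAET1L, chr6:149941764-149942013 on the plus strand for ULBP2, and chr6:149963693-149963942 on the plus strand for ULBP1.
RAET1L promoter: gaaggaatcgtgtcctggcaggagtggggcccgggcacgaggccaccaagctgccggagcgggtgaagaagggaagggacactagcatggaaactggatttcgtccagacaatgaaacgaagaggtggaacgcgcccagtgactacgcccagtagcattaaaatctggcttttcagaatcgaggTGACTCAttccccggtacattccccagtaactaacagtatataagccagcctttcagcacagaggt
ULBP2 promoter: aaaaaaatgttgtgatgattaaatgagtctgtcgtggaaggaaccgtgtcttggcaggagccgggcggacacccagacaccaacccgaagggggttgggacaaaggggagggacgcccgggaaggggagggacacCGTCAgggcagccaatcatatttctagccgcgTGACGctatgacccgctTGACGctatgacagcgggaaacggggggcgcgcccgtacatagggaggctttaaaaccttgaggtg
ULBP1 promoter: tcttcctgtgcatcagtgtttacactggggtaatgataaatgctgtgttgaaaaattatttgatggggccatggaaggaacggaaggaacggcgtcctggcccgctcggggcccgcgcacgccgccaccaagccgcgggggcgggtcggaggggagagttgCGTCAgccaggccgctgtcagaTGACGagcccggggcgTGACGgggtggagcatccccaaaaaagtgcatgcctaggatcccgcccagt
RAET1L had 1 TGANTCA match, beginning 66 bases before the start, and none to TGACG. ULBP2 and ULBP1 had 3 TGACG matches each and none to TGANTCA. No window held both, so no match of one overlapped a match of the other. Among 27305 RefSeq promoters of this length, 6.6% held TGANTCA and 21.66% held TGACG. In the family the only other TGANTCA match lay in the second of 3 listed RAET1E promoters, which also held TTCNNNGAA, the gamma-activated site (6.78% of all promoters). No promoter of the 8 members held the interferon-stimulated response core, GAAA and GAAA separated by NN (3.07% of all promoters), the ATF4 composite letters TGATGNAA (3.19%), the NF-kappa B letters GGANTTTCC (1.47%) or the heat shock element, GAA, TTC and GAA each separated by NN (0.44%), which says only that these letters are not in these windows. GC content was 54.0% with 12 CpG for RAET1L, 58.0% with 18 CpG for ULBP2 and 61.6% with 20 CpG for ULBP1, against medians of 58.0% and 11 CpG over all promoters. Aligned over their windows, the RAET1L and ULBP2 promoters had 122 bases in common, of 205 aligned. That is 48.8% of the 250-base window, a share that counts gaps as differences, unlike the coding identities per aligned base. On this share MICA and MICB had 84.0%, the highest of the 28 pairs. RAET1G and ULBP2 came next at 56.0%, and the lowest pair, ULBP1 and MICB, had 39.2%.

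In the RAET1/ULBP cluster 5 genes were higher in siKIF15 and 1 was lower, whereas the MIC genes did not pass the threshold. The plot of members by library shows every value. In bulk RNA, a change in the number of cells carrying a transcript and a change in the amount per cell cannot be told apart.

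**Figure D1:**
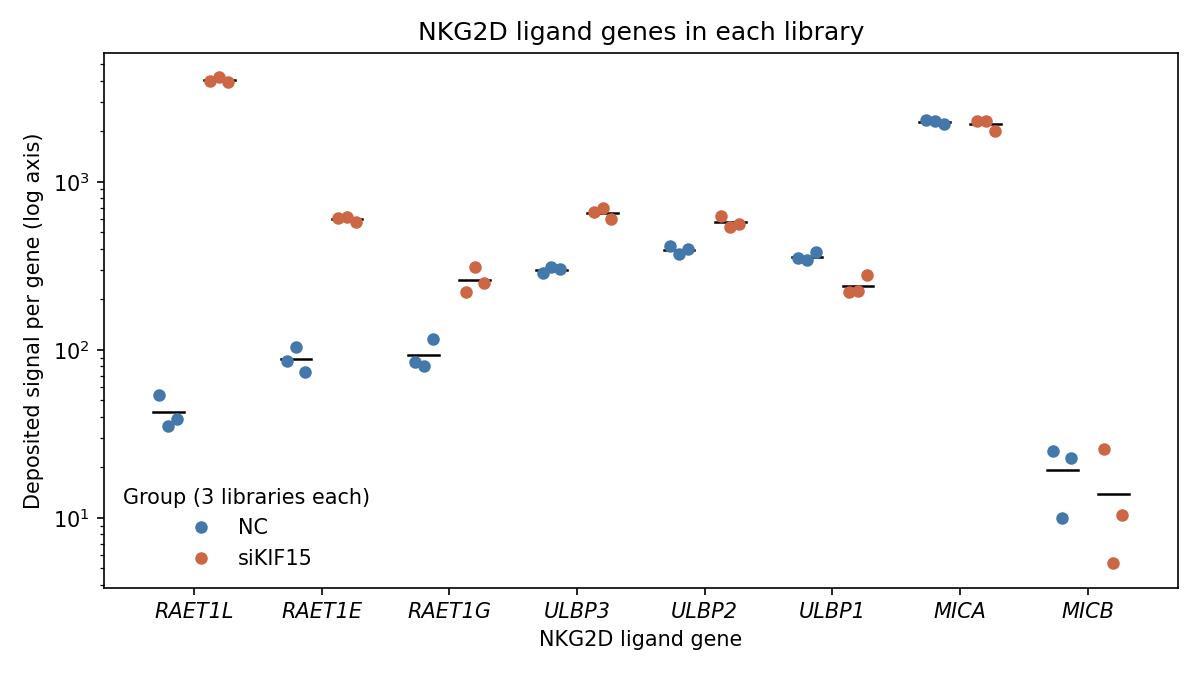
Deposited signal per gene (log axis) of the 8 NKG2D ligand genes, with 1 point per library (NC and siKIF15, 3 each) and a black line at each group's mean. RAET1L moved from 35.4 to 53.5 in NC to 3946.2 to 4186.4 in siKIF15, whereas the MICA and MICB points of the 2 groups overlap.

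RAET1L, a lipid-anchored ligand, had the largest difference of the family. It stood at 53.5, 35.4 and 38.8 in the NC libraries, against 3993.8, 4186.4 and 3946.2 in siKIF15. The lowest siKIF15 library was 73.7 times the highest NC library. The group means were 42.6 ± 9.67 and 4042 ± 127 (SD, n = 3), a 95-fold ratio, and the log2 difference was 6.56 ± 0.15 (SE; 95% interval 6.25 to 6.87). Ranked by log2 difference among the 16548 genes tested, RAET1L was the 23rd highest. Relative to its mean it varied more in NC, with a coefficient of variation of 22.7%, than in siKIF15.

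RAET1E, a membrane-spanning ligand whose gene lies at the lower end of the cluster, had the next largest difference. Its values were 85.3, 103.8 and 73.7 in the NC libraries and 607.7, 621.3 and 573.7 in siKIF15. The lowest siKIF15 library exceeded the highest NC library 5.53 times. Its mean went from 87.6 ± 15.2 to 600.9 ± 24.5 (SD, n = 3), or 6.86-fold, with a log2 difference of 2.78 ± 0.16 (SE; 95% interval 2.43 to 3.12). RAET1E and RAET1L thus started from signals of the same order in NC and ended apart: the intervals of their log2 differences were separated by more than 3 units.

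RAET1G, whose extracellular part resembles that of ULBP2 and RAET1L, rose less. It was at 84.1, 80.5 and 115.9 in the NC libraries, against 222.2, 311.9 and 249.7 in siKIF15. The groups did not overlap, with the lowest siKIF15 library at 1.92 times the highest NC library, NC 3. Its mean increased 2.79-fold, from 93.5 ± 19.5 to 261.3 ± 45.9 (SD, n = 3), and the log2 difference was 1.48 ± 0.20 (SE; 95% interval 1.05 to 1.90).

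ULBP3, a lipid-anchored ligand at the upper end of the cluster, was at 285.8, 312.3 and 303.2 in the NC libraries, against 661.4, 697.4 and 603.7 in siKIF15. The lowest siKIF15 library was 1.93 times the highest NC library. The ratio of the means was 2.18, from 300.4 ± 13.5 to 654.2 ± 47.3 (SD, n = 3), and the log2 difference was 1.12 ± 0.12 (SE; 95% interval 0.87 to 1.37). This interval overlaps that of RAET1G, and the difference between the changes of these genes was not tested.

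ULBP2, the near copy of RAET1L in coding sequence, showed the smallest rise. Its values were 413.7, 373.7 and 396.1 in the NC libraries and 625.1, 535.9 and 562.3 in siKIF15. The groups were separated by a factor of 1.30 between the nearest libraries. The means were 394.5 ± 20 and 574.4 ± 45.8 (SD, n = 3), a ratio of 1.46, and the log2 difference was 0.54 ± 0.12 (SE; 95% interval 0.29 to 0.79). Without siKIF15 1 the log2 difference was 0.48 and no longer passed the threshold. The RAET1L to ULBP2 ratio within a library was 0.129, 0.0946 and 0.0979 in the NC libraries and 6.39, 7.81 and 7.02 in siKIF15, so the order of this pair was turned over in all 3 siKIF15 libraries. In units of signal, the mean of ULBP2 rose by 179.9, which is 4.5% of the rise of RAET1L. The corresponding share was 4.19% for RAET1G, 8.84% for ULBP3 and 12.8% for RAET1E.

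ULBP1, a lipid-anchored ligand whose gene is known as a target of ATF4, was the member that went the other way. It was at 353.4, 344.1 and 380.1 in the NC libraries, against 220.7, 224.6 and 277.3 in siKIF15. All siKIF15 libraries lay below all NC libraries, and the highest of them, siKIF15 3, was at 0.806 of the lowest NC library. Its mean went from 359.2 ± 18.7 to 240.9 ± 31.6 (SD, n = 3), a ratio of 0.671, with a log2 difference of -0.58 ± 0.14 (SE; 95% interval -0.88 to -0.28). Without NC 3 (-0.54) or without siKIF15 1 (-0.52) the gene no longer passed the threshold. ULBP3, which lies beyond RAET1L in the cluster, stood at 0.809, 0.908 and 0.798 of ULBP1 in the NC libraries. In the siKIF15 libraries it stood at 3.00, 3.10 and 2.18 of ULBP1.

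MICA, the MHC-encoded ligand with the highest signal in NC, was at 2333.3, 2286.7 and 2197.2 in the NC libraries, against 2314.4, 2310.9 and 2010.9 in siKIF15. The groups overlapped, and siKIF15 3 was the lowest library. The means were 2272 ± 69.2 and 2212 ± 174 (SD, n = 3), and the log2 difference was -0.04 ± 0.08 (SE; 95% interval -0.21 to 0.13). It turned positive (0.03) without siKIF15 3, and it was -0.23 and past the threshold after a correction for GC content and transcript length.

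MICB, its close relative, had the lowest signal of the family. It was at 25.1, 10.0 and 22.8 in the NC libraries, against 25.7, 5.4 and 10.4 in siKIF15. The siKIF15 values spanned those of NC, with coefficients of variation of 42.3% in NC and 76.6% in siKIF15. The log2 difference was -0.61 ± 0.53 (SE; 95% interval -1.73 to 0.51), an interval that contains both 0 and a change as large as that of ULBP1. It was -1.16 without siKIF15 1, -1.002 without NC 2, -0.38 without NC 1, -0.12 without siKIF15 2 and -0.35 with a pseudocount of 10.

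**Figure D2:**
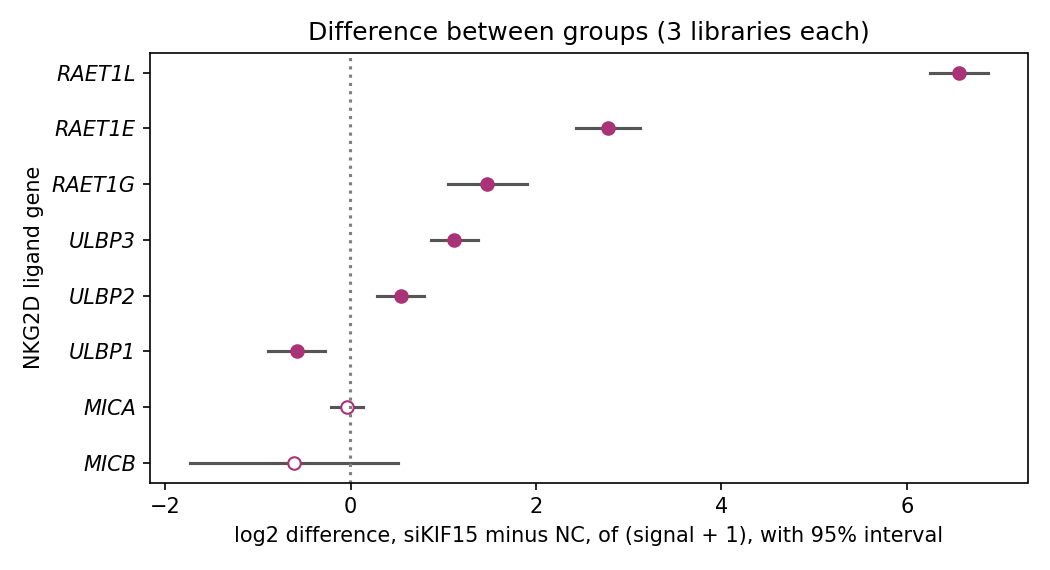
Log2 difference in signal, siKIF15 minus NC (3 libraries each), of the 8 genes, with 95% intervals from limma; filled points passed an adjusted p of 0.05 over all genes tested and open points did not. The intervals run from 6.25 to 6.87 for RAET1L down to -0.88 to -0.28 for ULBP1, and those of MICA and MICB cross 0.

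By number, 5 of the 8 members passed the threshold upwards, 1 downwards, and 2 did not pass. Over all genes tested, 18.0% passed in either direction, 9.66% upwards and 8.33% downwards. The groups did not overlap for 6 of the 8 members and for 34.8% of all genes. The median log2 difference was 0.83 over the members and -0.0035 over all genes. Since this contrast chose the members, nothing is read from these shares. The count over all genes was 2978, with 1599 higher and 1379 lower. It was 1184 without siKIF15 1 and 5077 without siKIF15 3, and it was 1802, 1366 and 1723 without NC 1, NC 2 and NC 3. With values scaled to equal totals per library, the split was 1204 higher against 1753 lower, and it was 1479 against 3192 after the correction for GC content and length. The members that passed numbered 4 to 6 when single libraries were left out. RAET1L, RAET1E, RAET1G and ULBP3 passed under all 14 alternatives tried.

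Between genes, levels were compared per length, which assumes that the deposited signal was not already divided by length. The unit is not stated and this assumption was not tested. The orders, shares and sums per kilobase given here and below rest on it. In signal per kilobase of annotated exon, MICA led in NC at 952 ± 29 (SD, n = 3). ULBP3 (289 to 316 in the 3 libraries) and ULBP2 (277 to 307) followed and overlapped. ULBP1 was at 114 ± 5.95 and RAET1G at 62.9 ± 13.1. RAET1E (27.9 to 39.4) and RAET1L (26.3 to 39.8) overlapped, and MICB was lowest at 7.45 ± 3.15. Per coding length, MICA, RAET1L and MICB kept ranks 1, 7 and 8, but the order between them became ULBP2, ULBP1, ULBP3, RAET1E and RAET1G, so the middle of the order depends on which length is used.

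In siKIF15 the order per kilobase of exon was headed by RAET1L. It stood at 3003 ± 94.5, up from rank 7 in NC, and MICA followed at 927 ± 73.0. ULBP3 (662 ± 47.9), ULBP2 (426 ± 34.0), RAET1E (228 ± 9.30), RAET1G (176 ± 30.9), ULBP1 (76.7 ± 10.1) and MICB (5.33 ± 4.08) came after them. Within each library, RAET1L was at 0.0229, 0.0155 and 0.0176 of the MICA signal in the NC libraries, against 1.73, 1.81 and 1.96 of it in siKIF15 (before division by length).

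Summed per kilobase of exon over the 8 genes, the family went from 1798 ± 22.8 in NC to 5504 ± 212 in siKIF15 (SD, n = 3), or 3.06-fold. RAET1L made up 1.75 ± 0.37% of this sum in NC and 54.6 ± 0.93% in siKIF15. The share of MICA was 53 ± 1.2% in NC and 16.8 ± 0.80% in siKIF15, although its own signal overlapped between groups. Without RAET1L the sum went from 1767 ± 15.7 to 2501 ± 133, or 1.42-fold. On coding length the ratios were 2.69 with RAET1L and 1.33 without it.

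**Figure D3:**
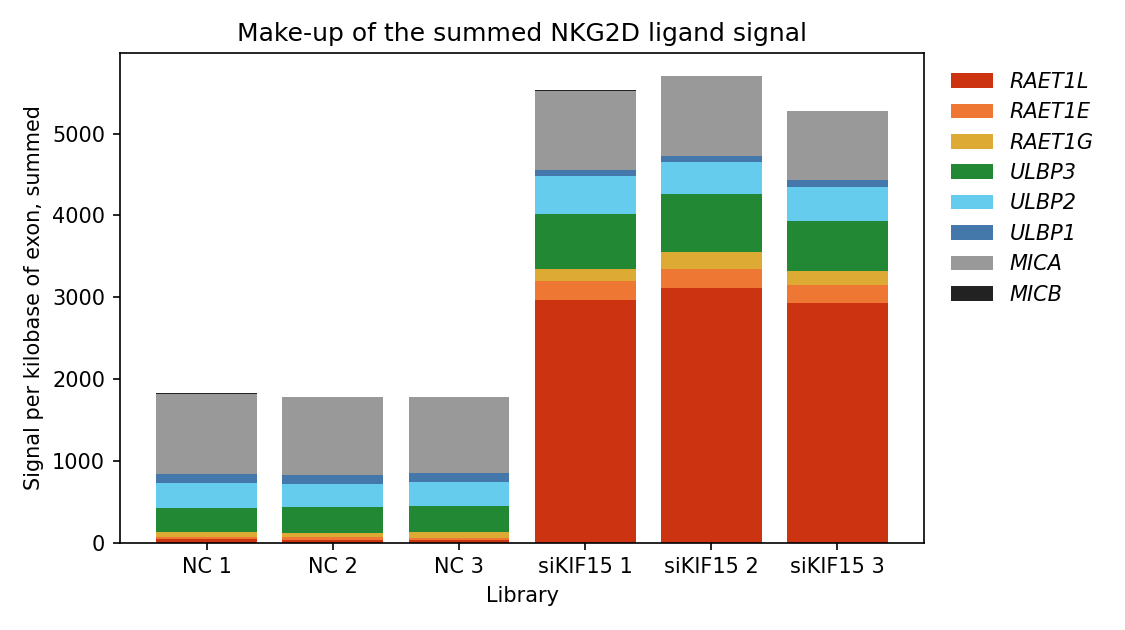
Signal per kilobase of annotated exon in each library (bars, NC 1 to 3 and siKIF15 1 to 3), stacked by gene over the 8 NKG2D ligand genes. The siKIF15 bars reach 5280 to 5701 against 1785 to 1825 in NC, and RAET1L fills 54.6% of them on average.

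None of the 4 nearest measured coding genes around the RAET1/ULBP cluster passed the threshold upwards. On the lower side, LRP11, which encodes a membrane protein, had a log2 difference of -0.03 (limma, adjusted p = 0.810), and PCMT1, a protein repair methyltransferase, of 0.08 (limma, adjusted p = 0.498). On the upper side, PPP1R14C, a phosphatase inhibitor, was at 2164, 2196 and 2126 in the NC libraries, against 1601, 1636 and 1540 in siKIF15, and fell by 0.44 on the log2 scale (limma, adjusted p = 0.000821). IYD, an iodotyrosine deiodinase, had a log2 difference of -0.20 (limma, adjusted p = 0.199). Within the cluster the position along the chromosome did not order the differences: ULBP1, the gene that was lower, lies between ULBP2 and RAET1L. Around the MIC pair, HLA-B (1.28) and HLA-C (0.83) on one side and DDX39B (0.26), an RNA helicase, on the other were higher (limma, adjusted p = 1.49e-08, 1.17e-06 and 0.0140). MCCD1, listed near 0 in NC, did not pass (limma, adjusted p = 0.124). MICA and MICB lie between these genes.

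**Figure D4:**
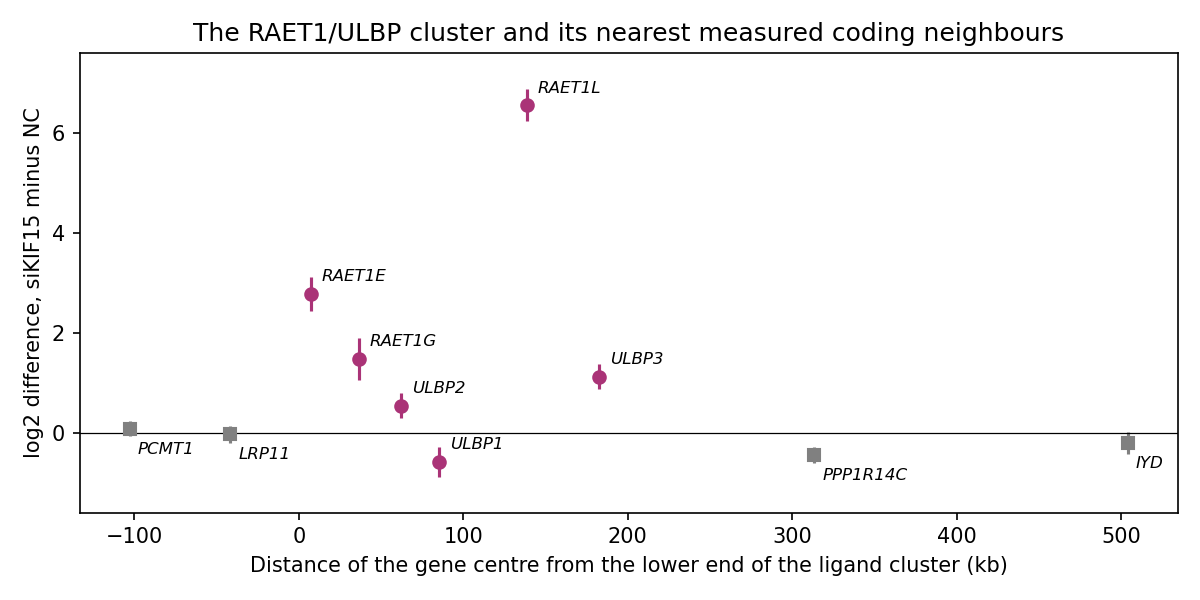
Log2 difference in signal (siKIF15 minus NC, with 95% intervals) of the 6 RAET1/ULBP genes (circles) and the 2 nearest measured coding genes on each side (squares), against the distance of each gene's centre from the lower end of the cluster in kilobases. RAET1L at 6.56 and ULBP1 at -0.58 lie within the same cluster, and the neighbours lie between -0.44 and 0.08.

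The other genes of the NKG2D axis were taken from lists of receptors, shedding enzymes, regulators and related ligands. Of 84 genes listed, 70 were tested. Of these, 12 were higher and 12 lower (34.3% called, against 18.0% of all genes), with a median log2 difference of 0.03. The lists were chosen with earlier results of these data known, so nothing is read from this share. None of the 7 tested genes of the receptor side passed (limma, and none at an unadjusted p under 0.05 either). KLRK1, the gene of NKG2D itself, was not among the symbols of these libraries, so the receptor gene was not measured. HCST, the signalling adaptor of NKG2D, was at 105, 89.9 and 136 in the NC libraries, against 178, 191 and 100 in siKIF15, so the groups overlapped. Among markers of NK and T cells, 6 of 10 were measured, with a summed signal of 91.8 to 133 in NC and 119 to 133 in siKIF15, nearly all of it from CD8A and NKG7; none passed. PTPRC, the leukocyte marker, was at 3.85 or less in all 6 libraries. Of 5 myeloid markers, CD68 alone passed, and it made up most of a sum of 1699 to 1937 in NC and 2934 to 3616 in siKIF15. Of 5 fibroblast markers, PDGFRA alone passed, at 7.28 or less in every library, with list sums of 330 to 349 and 322 to 371. PDGFRA (log2 difference 2.20) did not pass without NC 1, NC 3, siKIF15 1, siKIF15 2 or siKIF15 3 (1.91 to 2.28), or with a pseudocount of 0.1 (4.36) or 10 (0.57). The part of other cell types in the ligand values was not tested.

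Among 8 tested genes of ligand shedding and membrane release, ADAM9 and ADAM10 were lower and none was higher (limma; 1 higher and 3 lower at an unadjusted p under 0.05). Over all genes, 18.0% passed in either direction and 8.33% downwards, and nothing is read from the count of this list. ADAM9 was at 6820, 6758 and 6586 in the NC libraries, against 4635, 4560 and 5799 in siKIF15, and fell by 0.44 ± 0.09 on the log2 scale (limma, adjusted p = 0.00242). ADAM10, a sheddase of MICA and ULBP2, was at 6987, 7833 and 7647 in the NC libraries, against 5244, 5153 and 6687 in siKIF15, and fell by 0.40 ± 0.09 (limma, adjusted p = 0.00665). In both, siKIF15 3 lay closest to NC. Without siKIF15 1 neither passed (log2 difference -0.39 for ADAM9 and -0.35 for ADAM10), and ADAM10 also did not without NC 2 (-0.37). ADAM17, the other main sheddase, had a log2 difference of -0.08 (limma, adjusted p = 0.700).

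Regulators known from work on ligand induction moved in both directions. Of 9 tested genes of the DNA damage and p53 list, 2 were higher and 3 lower, against 9.66% and 8.33% of all genes. Nothing is read from this count. CDKN1A, the p53 target that arrests the cell cycle, went from 27094 ± 1735 to 48509 ± 2455 (SD, n = 3; log2 difference 0.84; limma, adjusted p = 1.04e-06), and the checkpoint kinase CHEK2 rose by 0.74 on the log2 scale (limma, adjusted p = 1.99e-05). The damage sensor kinases ATR and ATM fell by 0.75 and 0.69 on the log2 scale (limma, adjusted p = 0.00104 and 0.00263). E2F3, a cell cycle transcription factor, had a log2 difference of -0.32 (limma, adjusted p = 0.0148), which did not pass without NC 1, NC 2, NC 3 or siKIF15 1 (-0.29, -0.35, -0.32 and -0.32).

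In the list of stress and other transcription regulators, 4 of 20 were higher and 2 lower. Of all genes, 18.0% passed in either direction, 9.66% upwards and 8.33% downwards, and nothing is read from this count. IRF1, an interferon-induced factor, was at 1155, 1079 and 1138 in the NC libraries, against 2517, 2633 and 2532 in siKIF15, and its log2 difference was 1.19 ± 0.08 (SE; limma, adjusted p = 2.51e-08). STAT3 (0.39), HDAC1 (0.33), a histone deacetylase, and ATF4 (0.36), the stress factor named above for ULBP1, were also higher (limma, adjusted p = 0.00115, 0.00348 and 0.00376). ATF4 was at 24084, 21150 and 23062 in the NC libraries, against 29067, 31315 and 27343 in siKIF15. Its part in the ULBP1 values was not tested. DDIT3 (-0.29), which acts downstream of ATF4, and MYC (-0.25) were lower (limma, adjusted p = 0.0119 and 0.0214). DDIT3 did not pass without NC 1, NC 3 or siKIF15 1 (-0.27 in each case), nor MYC without NC 1, NC 2, NC 3 or siKIF15 1 (-0.26, -0.27, -0.22 and -0.25). After the correction for GC content and length, ATF4 was at 0.18, DDIT3 at -0.44 and MYC at -0.44, all past the threshold.

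The list of microRNA processing and other post-transcriptional control was used because microRNAs hold down MICA, MICB and ULBP transcripts in many cells. Of its 7 tested genes, 3 were lower and none higher (limma, with the same counts at an unadjusted p under 0.05). The shares over all genes were 8.33% lower and 9.66% higher, and nothing is read from this count. Any part of these genes in the ligand values was not tested. The microRNA processing genes DROSHA (-0.07) and DGCR8 (0.08) did not pass (limma, adjusted p = 0.585 and 0.454). AGO2, which carries the microRNA, was at 5760, 5994 and 6155 in the NC libraries, against 3664, 2825 and 3860 in siKIF15, and fell by 0.80 ± 0.10 on the log2 scale (limma, adjusted p = 3.33e-05). DICER1, which cuts microRNA precursors, was at 4660, 5082 and 4859 in the NC libraries, against 2781, 2451 and 3443 in siKIF15, and fell by 0.76 ± 0.10 (limma, adjusted p = 7.39e-05). IGF2BP3, an RNA-binding protein, had a log2 difference of -0.41 (limma, adjusted p = 0.0298). It did not pass without NC 1, NC 2, NC 3, siKIF15 1 or siKIF15 2 (-0.46, -0.31, -0.47, -0.41 and -0.36).

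Ligands of other receptors on natural killer cells were mixed, with 6 of 19 tested higher and 2 lower. Among all genes the shares were 9.66% and 8.33%, and nothing is read from this count. HLA-E, which engages the inhibitory receptor NKG2A, was at 4821, 4318 and 4605 in the NC libraries, against 9036, 9675 and 8197 in siKIF15, and rose by 0.97 ± 0.08 (log2, SE; limma, adjusted p = 2.34e-07). HLA-F rose by 0.70 on the log2 scale (limma, adjusted p = 0.000243). CD70, the ligand of CD27, was at 4.5, 0.0958 and 0.0 in the NC libraries, against 17.6, 25.1 and 33.9 in siKIF15 (log2 difference 3.82; limma, adjusted p = 0.000842). With NC values near 0, the size of this difference depends on the pseudocount: it was 5.79 with 0.1 and 1.62 with 10. NCR3LG1, the ligand of the activating receptor NKp30, was at 2144, 1978 and 2326 in the NC libraries, against 1290, 704 and 1391 in siKIF15, and fell by 0.99 ± 0.18 on the log2 scale (limma, adjusted p = 0.00141). CLEC2B, the ligand of NKp80, was at 38.9, 53.1 and 44.5 in the NC libraries, against 8.07, 14.5 and 0.0550 in siKIF15, with a log2 difference of -3.13 ± 0.72 (SE; limma, adjusted p = 0.00681). It did not pass without NC 2 (-3.01) or siKIF15 1 (-3.51), it was -1.96 without siKIF15 3, and it ranged from -1.75 with a pseudocount of 10 to -4.10 with one of 0.1.

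The structural relatives of the ligands, the MHC class I and class I-like chains, were higher more often than not. Of 11 tested, 7 were higher and none lower (limma, with the same counts at an unadjusted p under 0.05). Among all genes, 9.66% were higher and 8.33% lower, and nothing is read from this count. The median log2 difference of these 11 was 0.70, against 0.83 for the ligands. B2M, the light chain that class I proteins need and NKG2D ligands do without, went from 24464 ± 678 to 74573 ± 3810 (SD, n = 3), a log2 difference of 1.61 (limma, adjusted p = 1.74e-10). HLA-B (1.28), HLA-E (0.97) and HLA-C (0.83) followed (limma, adjusted p = 1.49e-08, 2.34e-07 and 1.17e-06). Among the ligands, MICA lies in the same chromosomal region as HLA-B and HLA-C and its interval, -0.21 to 0.13, lies below the 95% intervals of HLA-B (1.10 to 1.45) and HLA-C (0.67 to 0.99). No test of the difference between genes was made. Reads of HLA genes share sequence, and how they were counted is not stated.

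The genes whose pattern was most like that of RAET1L over the 6 libraries, by Pearson correlation of log2(value + 1), were KLF4 (r = 0.99985), IFIT3 (0.99982), CMPK2 (0.99967), HERC6 (0.99942) and APOL1 (0.99941). Their log2 differences were 2.95, 7.59, 1.75, 2.66 and 4.62. IFIT3, CMPK2, HERC6 and APOL1 are known interferon-induced genes, and KLF4 is a zinc finger transcription factor. A correlation over 2 groups of 3 that lie far apart is high for any gene that separates them, and 166 of 16536 genes had r over 0.99, so the order is a description of these libraries.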

How the data were processed

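RNA-seq of 3 NC and 3 siKIF15 libraries was analysed. The deposited files give 1 signal value per gene symbol and library, with no header that states the unit. Per the labels' protocols, libraries followed a standard Illumina procedure; strand was not given. The submitters' processing notes name Bowtie 0.12.2, mm8 and mm9; the last are mouse builds, while the labels say human. The values are not whole numbers and reads were not recovered from them, so the planned count tests were not run.

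Signal was analysed as log2(value + 1) with limma 3.58.1 (variance trend) in R 4.3.3, over the 16548 genes whose mean reached 1 in NC or in siKIF15, all 6 libraries in 1 fit without covariates, with Benjamini-Hochberg adjustment and a threshold of 0.05. The method was tested on simulated counts, where 98 of 100 2-fold and 77 of 100 1.5-fold changes were called, with 2 false calls. These counts had an assumed spread and no GC or length trend, so the simulation does not cover such trends in these libraries. Exon and coding lengths, positions, coding identity and shared windows came from GENCODE 29, and promoters from RefSeq (all 8 genes matched), with Python 3.11.15, pandas 2.3.3 and Biopython 1.88. The members and lists were chosen with earlier results of these data known. The text names the 8 members, KIF15, the 2 nearest measured coding genes on each side of each cluster, the 5 genes most like RAET1L and, of each list, up to 4 genes past the threshold with the smallest adjusted p and all genes of a count of 5 or fewer, except 1 gene that is not reported here. PTPRC, ADAM17, HCST, CD8A, NKG7, DROSHA and DGCR8 were added after their values were seen. KLRK1, which has no values here, was also added. Alternatives covered the pseudocount, the filter, scaling, the replicate block, leaving out single libraries and, added after seeing the data, a correction for GC content and length.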

Additional observations from a re-analysis of the deposited data

How the results depend on the processing

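Depth is unknown, and the unit was inferred from the values. The labels' replicate numbers did not pair the libraries: deviations of same-numbered libraries correlated at 0.0521, -0.0575 and 0.0194 over 13838 genes, and not every library correlated best with its own number. With a replicate block, 3184 genes were called against 2978, 6 of the 8 ligands and 26 against 24 of the other axis genes; the luminal marker TMPRSS2 no longer passed (adjusted p = 0.0627). Leaving out single libraries gave 1184 to 5077 genes called, 767 to 2537 higher and 417 to 2540 lower, 0 to 1 ligands lower and 15 to 32 axis genes. Correcting for transcript length and GC content, an alternative chosen after seeing the data, gave 4671 genes, 3192 of them lower, and 2 ligands lower, ULBP1 and MICA. MICA's log2 difference changed sign without siKIF15 3, and its range without single libraries was -0.0756 to 0.0258; the cause was not tested.

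Over the 14 alternatives the log2 difference ranged from 6.28 to 6.73 for RAET1L, 2.66 to 2.91 for RAET1E, 1.26 to 1.64 for RAET1G, 0.90 to 1.18 for ULBP3, 0.48 to 0.59 for ULBP2, -0.69 to -0.52 for ULBP1 and -1.16 to -0.12 for MICB. The 36 other named genes were refitted 503 times; 446 refits kept the call, 57 lost it and 0 changed direction.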
